A study of Mus musculus with 6 samples.

Results

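The 10 genes described here encode proteins of the extracellular matrix, or proteins that bind or cut it, and all of them had fewer transcripts in CD8+ T cells cultured with an LSD1 inhibitor. They are Col15a1, Col18a1, Colq, Nid2, Gpc1, Spock2, Hpse, Ltbp3, Spp1 and Emilin2, 10 of the 16281 genes in the count table and 10 of the 11698 that had enough reads to be tested. The genes were chosen by their difference between the inhibitor and the vehicle samples of this same RNA-seq experiment, so their own fold changes are a description and no p-value is given for them. By the call used throughout (adjusted p under 0.05 and a change over 1.5-fold), 10 of 10 were lower, as the choice required, against 4.09% of all tested genes called lower and 2.22% called higher.

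The comparison had 6 libraries, 3 for each group. CD8+ T cells were taken from the spleens of OT1 mice, a C57BL/6 strain whose transgenic T cell receptor (Tg(TcraTcrb)1100Mjb) recognises an ovalbumin peptide, so nearly all CD8+ T cells of both groups carry the same receptor. Cells of both groups were activated with antibodies to CD3 and CD28 for 48 h with interleukin-2 and then expanded for 3 days, with 0.5 μM GSK2879552 (GSK) or with vehicle (Veh) throughout. GSK2879552 is an irreversible inhibitor of LSD1, the histone H3K4 demethylase encoded by Kdm1a. The study's text names 3 separate mice, and the library labels give only replicate numbers. These are bulk cultures of activated cells outside the animal, in which fewer cells of a type and less RNA per cell cannot be told apart.

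The extracellular matrix is the meshwork of secreted proteins and sugar-bearing proteoglycans between cells, and the basement membrane is its sheet-like form under epithelia and around vessels. It is made mainly by stromal cells such as fibroblasts. T cells meet it when they leave the blood, which they do with integrins and with enzymes that cut matrix, and activated T cells also secrete some matrix-binding proteins, among them osteopontin.

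Total assigned reads ran from 18288447 to 18918811 in the Veh libraries and from 19149909 to 19846720 in the GSK libraries, so the GSK libraries were all slightly deeper, and levels are given as CPM, read counts scaled to a common library size, with edgeR's TMM factors applied. The median log2 fold change over all tested genes was -0.004. Kdm1a itself, whose protein and not whose transcript is the drug's target, was at 92.8 ± 5.45 CPM in Veh and 87.1 ± 3.54 in GSK (SD, n = 3; log2 fold change -0.09, adjusted p = 0.22, edgeR's quasi-likelihood test). Of 6 CD8 T cell markers, Cd8a (516 ± 19.0 and 541 ± 13.1 CPM) and Cd2 were higher in GSK on average and Cd8b1, Cd3d, Cd3e and Cd3g were lower, and none was called.

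RefSeq promoter sequences on mouse build GRCm38.p6 were at hand for 7 of the genes, with 10 promoters among them. Gpc1, Nid2 and Colq had none in that table. The 250 bases before the start are shown for 4 genes: Col18a1 and Spock2, which had the largest fold differences, Hpse, whose samples lay closest together in relation to its difference, and Spp1, whose Veh samples were the most scattered of the well-counted genes. Capitals mark matches, on either strand, to the short motifs searched, which were the hypoxia response core (ACGTG or GCGTG), the GC box (GGGCGG), the RUNX core (TGTGGT or TGTGGC), the ETS core (AGGAAG), a STAT palindrome (TTCNNNGAA), the AP-1 site (TGANTCA) and the TATA motif (TATAAA).
Col18a1 promoter (chr10:77166531-77166780, minus strand): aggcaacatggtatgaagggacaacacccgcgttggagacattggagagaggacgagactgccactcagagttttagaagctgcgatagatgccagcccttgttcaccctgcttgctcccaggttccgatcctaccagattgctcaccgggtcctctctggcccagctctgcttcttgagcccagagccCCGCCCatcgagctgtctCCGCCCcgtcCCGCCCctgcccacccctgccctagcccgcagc
Spock2 promoter (chr10:60106007-60106256, plus strand): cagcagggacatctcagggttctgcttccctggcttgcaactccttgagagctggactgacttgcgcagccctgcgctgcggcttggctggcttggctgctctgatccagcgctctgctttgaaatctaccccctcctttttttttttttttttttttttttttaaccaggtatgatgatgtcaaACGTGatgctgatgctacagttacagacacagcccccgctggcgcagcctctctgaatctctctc
Hpse promoter (chr5:100719717-100719966, minus strand): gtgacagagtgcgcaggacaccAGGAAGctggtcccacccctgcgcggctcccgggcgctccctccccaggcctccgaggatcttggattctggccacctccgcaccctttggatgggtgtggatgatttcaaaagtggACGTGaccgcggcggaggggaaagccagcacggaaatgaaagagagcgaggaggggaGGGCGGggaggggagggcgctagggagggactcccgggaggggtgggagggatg
Spp1 promoter (chr5:104434861-104435110, plus strand): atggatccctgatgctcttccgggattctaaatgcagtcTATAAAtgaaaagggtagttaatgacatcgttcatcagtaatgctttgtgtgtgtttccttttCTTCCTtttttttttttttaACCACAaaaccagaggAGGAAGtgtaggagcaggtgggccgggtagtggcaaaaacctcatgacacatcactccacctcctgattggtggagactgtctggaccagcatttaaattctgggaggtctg

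Col18a1 and Spp1 each had a second promoter, which is not shown. The first Col18a1 promoter, shown here, holds 3 GC box matches, written CCGCCC because they lie on the other strand, the nearest starting 33 bases before the start. Its second promoter holds no GC box but a RUNX core at -12 and an ETS core at -169. The Spock2 promoter holds 1 hypoxia response core at base -65. The Hpse promoter holds that core at -111, a GC box at -54 and an ETS core at -228. The first Spp1 promoter, shown here, holds a TATA motif at -211, ETS cores at -148 and -112 and a RUNX core at -128. The second Spp1 promoter holds only an ETS core, at -161. Over the 10 promoters of the 7 genes, the hypoxia response core was found in 3, the GC box in 3, the RUNX core in 3, the ETS core in 4, the STAT palindrome in 1, the TATA motif in 1 and the AP-1 site in 0. In all 32851 promoters in the table the shares were 38.6% for the hypoxia response core, 32.7% for the GC box, 27.4% for the RUNX core, 29.5% for the ETS core, 7.0% for the STAT palindrome, 12.4% for TATA and 6.7% for AP-1. No single motif was found in all 7 genes. GC content ran from 35.6% in the second Spp1 promoter to 66.8% in Hpse, on both sides of the median of all promoters (52.4%), and CpG counts ran from 2 in Ltbp3 to 16 in Hpse against a median of 6. A match is a run of letters and not a known binding site.

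Col15a1 and Col18a1 encode the 2 multiplexin collagens, which carry sugar chains, sit at basement membranes and release the fragments restin and endostatin from their ends. Col15a1 (chromosome 4, 47207655 to 47313167, plus strand, GRCm38) had 40, 43 and 34 reads in Veh and 21, 8 and 21 in GSK, or 2.18, 2.31 and 1.79 CPM against 1.10, 0.405 and 1.10. The groups did not overlap, and replicate 2 was the lowest of the GSK samples. The mean fell from 2.09 ± 0.270 to 0.867 ± 0.401 CPM, a log2 fold change of -1.27 (SE 0.352), which became -0.92 without GSK replicate 2. It passed the call in 10 of 11 alternatives and not without Veh replicate 2. Its GSK samples had a coefficient of variation of 46.2%, where counting error alone gives 24.5% at this depth.

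Col18a1 (chromosome 10, 77052178 to 77166530, minus strand) was the least abundant of the 10, with 13, 18 and 21 reads in Veh and 6, 5 and 3 in GSK (0.707, 0.966 and 1.10 CPM against 0.315, 0.253 and 0.156). Every GSK sample was under 10 reads, so the gene passed the filter on low counts through the Veh samples only. It had the largest difference, from 0.925 ± 0.201 to 0.242 ± 0.0799 CPM (log2 fold change -1.91, SE 0.453), on the fewest reads. Its SE was the widest of the 10, DESeq2 gave it no adjusted p, and a filter at 1 CPM removed it.

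Colq encodes the collagen-like tail that anchors acetylcholinesterase in the basal lamina of the neuromuscular junction. Colq (chromosome 14, 31523082 to 31577863, minus strand) had 32, 47 and 42 reads in Veh and 23, 17 and 17 in GSK, or 1.74, 2.52 and 2.21 CPM against 1.21, 0.860 and 0.886. All GSK samples lay under all Veh samples, with Veh replicate 1 nearest to the GSK samples. The log2 fold change was -1.13 (SE 0.292), from 2.16 ± 0.393 to 0.985 ± 0.193 CPM. Ache, the enzyme it anchors, and Prima1, a membrane anchor of the same enzyme, were too low to test, as were all the acetylcholine pathway genes that had a row (4 of 7).

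Nid2 encodes nidogen-2, which links laminin to collagen IV in basement membranes. Nid2 (chromosome 14, 19751257 to 19811787, plus strand) had 51, 41 and 38 reads in Veh and 18, 19 and 19 in GSK (2.77, 2.20 and 2.00 CPM against 0.945, 0.962 and 0.991). The GSK samples were nearly equal and well under the lowest Veh sample. Their coefficient of variation was 2.4%, which is less than the 23.1% that counting error gives on average and so no measure of a small biological spread. The mean went from 2.32 ± 0.403 to 0.966 ± 0.0231 CPM (log2 fold change -1.26, SE 0.275). Its paralog Nid1 was at 0.816 ± 0.416 CPM in Veh and 1.26 ± 0.309 in GSK (log2 fold change 0.62, adjusted p = 0.26, edgeR).

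The proteoglycans were Gpc1 and Spock2. Gpc1 encodes glypican-1, a heparan sulfate proteoglycan held to the cell surface by a lipid anchor. Gpc1 (chromosome 1, 92831645 to 92860211, plus strand) had 692, 713 and 699 reads in Veh and 474, 475 and 365 in GSK, or 37.6, 38.3 and 36.7 CPM against 24.9, 24.0 and 19.0. The Veh samples were close together, and GSK replicate 3 was the lowest. The mean fell from 37.5 ± 0.762 to 22.7 ± 3.16 CPM (log2 fold change -0.73, SE 0.0914), and to -0.62 without GSK replicate 3. Spock2 encodes testican-2, a secreted proteoglycan that carries heparan and chondroitin sulfate and binds calcium. Spock2 (chromosome 10, 60106257 to 60135198, plus strand) had 67, 59 and 59 reads in Veh and 12, 26 and 15 in GSK (3.64, 3.17 and 3.10 CPM against 0.630, 1.32 and 0.782). The groups were well apart, and replicate 2 was the highest GSK sample. The mean went from 3.30 ± 0.297 to 0.909 ± 0.360 CPM (log2 fold change -1.85, SE 0.290), and to -2.22 without GSK replicate 2.

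Hpse encodes heparanase, the enzyme that cuts heparan sulfate chains and that leukocytes use to pass basement membranes. Hpse (chromosome 5, 100679484 to 100719716, minus strand) had 292, 287 and 337 reads in Veh and 150, 165 and 153 in GSK, or 15.9, 15.4 and 17.7 CPM against 7.88, 8.35 and 7.98. The lowest Veh sample and the highest GSK sample were 7.04 CPM apart, far more than either group's own spread. The mean went from 16.3 ± 1.22 to 8.07 ± 0.250 CPM (log2 fold change -1.02, SE 0.105), and no sample left out moved it beyond -1.06 or -0.95. Hpse2, the paralog without that enzyme activity, was too low to test.

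Ltbp3 encodes a latent TGF-β binding protein, which holds inactive TGF-β and ties it to matrix fibres. Ltbp3 (chromosome 19, 5740900 to 5758536, plus strand) had 44, 52 and 54 reads in Veh and 26, 31 and 23 in GSK (2.39, 2.79 and 2.84 CPM against 1.37, 1.57 and 1.20). The groups did not overlap. The mean went from 2.67 ± 0.244 to 1.38 ± 0.185 CPM (log2 fold change -0.95, SE 0.246). Ltbp4 was at 2.93 CPM in Veh and 1.90 in GSK (log2 fold change -0.62, adjusted p = 0.19, edgeR) and passed the call only without GSK replicate 2, at -1.19. Ltbp1 had 9, 10 and 2 reads in Veh and 0, 1 and 0 in GSK, too few to test.

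Spp1 encodes osteopontin, a secreted glycoprotein that binds integrins and CD44 and acts as a cytokine. Spp1 (chromosome 5, 104435111 to 104441053, plus strand) had 195, 304 and 150 reads in Veh and 112, 114 and 138 in GSK, or 10.6, 16.3 and 7.88 CPM against 5.88, 5.77 and 7.20. The groups lay only 0.688 CPM apart at their edges, and the Veh samples were widely spread, with replicate 2 the highest. The coefficient of variation in Veh was 37.1%, where counting error alone gives 6.8%. The mean went from 11.6 ± 4.30 to 6.28 ± 0.793 CPM (log2 fold change -0.88, SE 0.254). Without Veh replicate 2 the log2 fold change was -0.56, which is smaller than the 1.5-fold limit of the call, and without Veh replicate 3 it was -1.10. Over the 11 alternatives Spp1 passed the call in 5, the fewest of the 10, and it did not pass without Veh replicate 1, Veh replicate 2 or any 1 of the 3 GSK replicates, nor without a filter on low counts.

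Emilin2 encodes a glycoprotein of elastic fibres that also binds death receptors. Emilin2 (chromosome 17, 71252172 to 71311556, minus strand) was the most abundant of the 10, with 1762, 1810 and 1946 reads in Veh and 1300, 1016 and 1169 in GSK (95.8, 97.1 and 102 CPM against 68.3, 51.4 and 61.0). The groups were far apart for the spread within them. The mean went from 98.4 ± 3.41 to 60.2 ± 8.44 CPM (log2 fold change -0.71, SE 0.0861), the smallest difference of the 10. Its relative Emilin1 was at 6.34 CPM in Veh and 5.43 in GSK (log2 fold change -0.22, adjusted p = 0.27, edgeR).

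**Figure D1:**
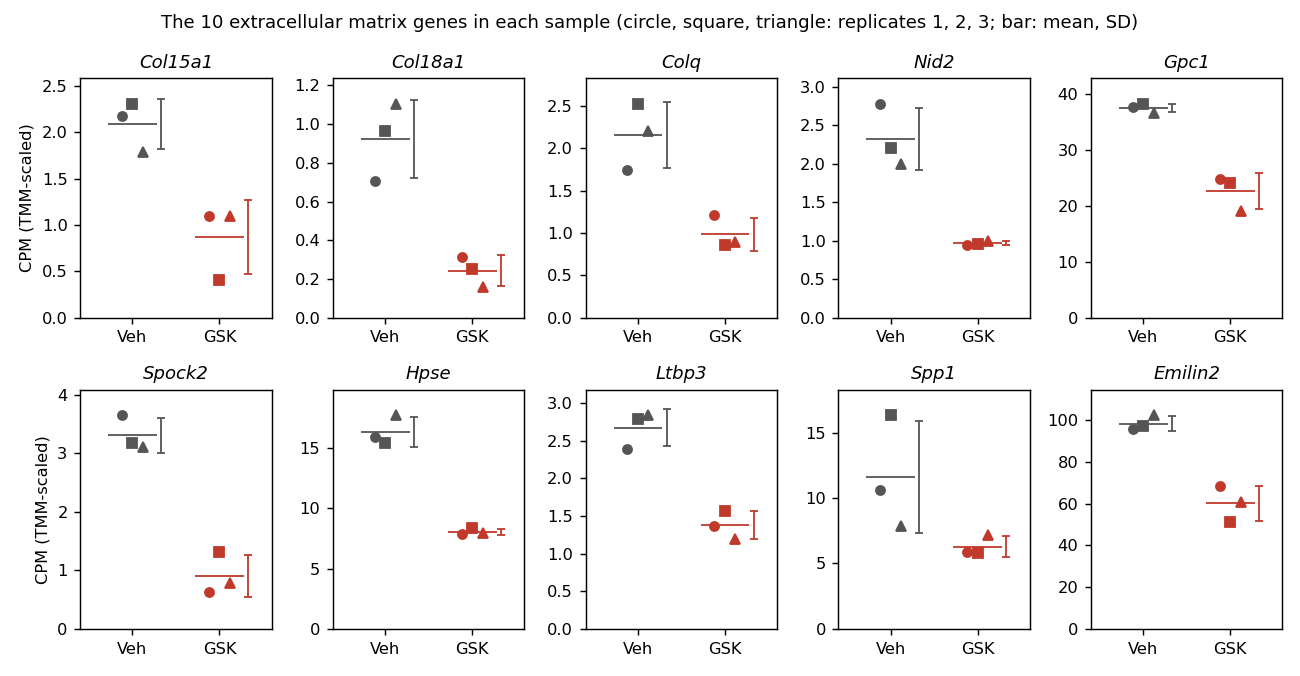
CPM (TMM-scaled, linear axis from 0, own scale in each panel) of the 10 genes in the 3 Veh and 3 GSK samples, with the replicate number shown by the symbol, the mean as a line and the SD as a bar (n = 3). All GSK points lie under all Veh points in every panel, with the narrowest gap for Spp1 (0.688 CPM).

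All 3 GSK samples were below all 3 Veh samples in 10 of 10 genes, a pattern that 23.0% of all tested genes had and that the choice of these genes favoured. GSK levels were between 26.1% (Col18a1) and 61.2% (Emilin2) of the Veh mean. The median log2 fold change of the 10 was -1.07. No library was the lowest throughout: GSK replicate 1 was the lowest GSK sample for 3 genes, replicate 2 for 4 and replicate 3 for 3, and the highest Veh sample was replicate 1 for 2 genes, replicate 2 for 4 and replicate 3 for 4. The summed level of the 10 was 173, 181 and 178 CPM in Veh and 113, 94.9 and 100.3 in GSK, of which Emilin2 alone made up 53.7% to 60.8%. Without Emilin2 the sums were 77.6, 83.9 and 75.4 CPM against 44.2, 43.5 and 39.3.

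**Figure D2:**
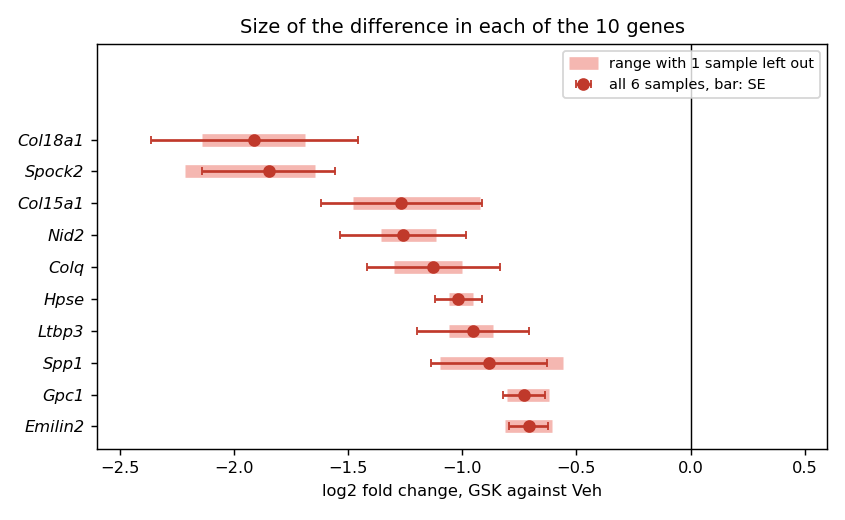
Log2 fold change (GSK against Veh, horizontal axis) of each of the 10 genes with all 6 samples (point, bar is the SE) and the range of the value when 1 sample is left out (pale band). Values run from -1.91 in Col18a1 to -0.71 in Emilin2, and the widest bands are those of Spock2, Col15a1 and Spp1.

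Divided by exon length, so that genes can be compared with each other, Veh levels spanned 17.9 CPM per kb for Emilin2 to 0.132 for Col18a1. Emilin2, Gpc1 (7.28), Spp1 (7.04) and Hpse (4.64) were above 4 CPM per kb, and the other 6 were below 0.6, with Spock2 at 0.597, Colq at 0.567, Nid2 at 0.449, Col15a1 at 0.329 and Ltbp3 at 0.295. Neighbours whose Veh samples overlapped, and whose order is therefore not settled, were Gpc1 with Spp1, Spp1 with Hpse, Spock2 with Colq, Colq with Nid2, and Col15a1 with Ltbp3. In GSK the top 4 means kept their order, with the samples of Gpc1 and Spp1 again overlapping, and Spock2 moved from place 5 to place 7, at 0.164 CPM per kb, where its samples overlapped those of Nid2. The 4 well-expressed genes had log2 fold changes of -1.02 to -0.71 and the 6 others of -1.91 to -0.95, with SEs of up to 0.453. A gene with few reads needs a larger difference to pass the same call, so these ranges of differences are not comparable as sizes of response.

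**Figure D3:**
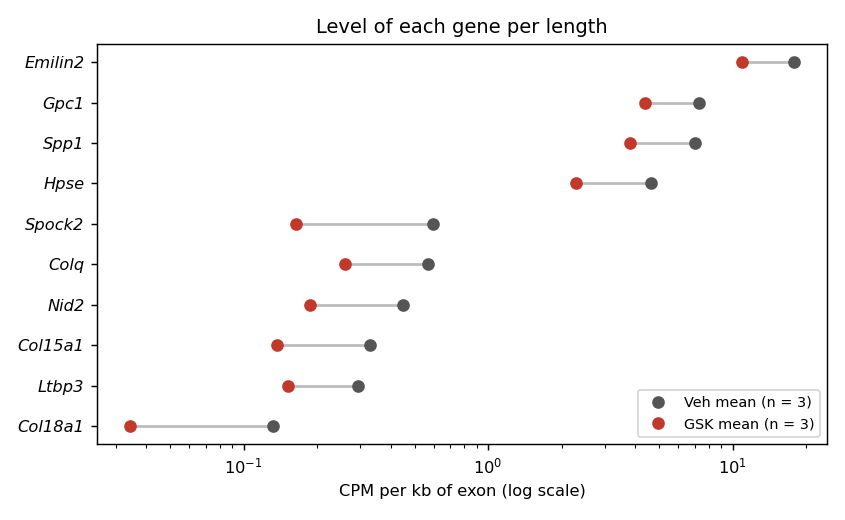
Mean level of each of the 10 genes in Veh (grey) and GSK (red), n = 3 each, in CPM per kb of exon on a log axis. Emilin2, Gpc1, Spp1 and Hpse stand apart from the other 6 in both groups, and every GSK mean is left of its Veh mean.

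The genes lie on 7 chromosomes, with Hpse and Spp1 on chromosome 5, Spock2 and Col18a1 on chromosome 10, and Colq and Nid2 on chromosome 14. Their Gene Ontology annotations in the table overlapped, since the genes had been picked as matrix genes: 8 of 10 carried the term collagen-containing extracellular matrix (0.992% of tested genes did) and 3 carried basement membrane (0.410%). Several overlap other genes in RefSeq. Nid2 shares its end with Rtraf and Gpc1 with Ankmy1, each on the opposite strand, and while the library kit keeps the strand, the sources used here do not say whether reads were counted by it. Rtraf had 2516 to 2816 reads, far more than Nid2, and a log2 fold change of 0.08 (adjusted p = 0.21, edgeR). Ankmy1 had 7 to 24 reads against at least 365 for Gpc1. Col15a1 spans 5 long non-coding RNAs, Col18a1 a pseudogene, and Gpc1 and Spock2 a microRNA and at least 1 long non-coding RNA each, none with a row of its own.

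The nearest tested gene on each side was compared, 20 genes in all. By edgeR's call, 1 of 20 was lower and 0 higher, against 4.09% and 2.22% of all tested genes. At an unadjusted p under 0.05, 6 were lower and 5 higher, and DESeq2 called 1 lower and 0 higher. Of all 11698 tested genes, 2479 were lower and 2547 higher at that unadjusted p, the background for the lists below. The gene called was Hacl1, 29.4 kb from Colq, at 22.3 and 14.4 CPM (log2 fold change -0.63, adjusted p = 7.3e-04), and it lost the call without GSK replicate 3 (-0.53). With the adjusted p alone, 4 neighbours were lower and 3 higher, against 15.5% and 16.6% of all tested genes. The lower ones were Hacl1, Tgfbr1 beside Col15a1 (log2 fold change -0.41, adjusted p = 4.5e-04), Psap beside Spock2 (-0.22, 0.0045) and Lpin2 beside Emilin2 (-0.31, 0.0061). The higher ones were Eaf1 beside Colq (0.30, adjusted p = 0.0010), Slc19a1 beside Col18a1 (0.30, 0.014) and Znrd2 beside Ltbp3 (0.43, 0.014). Coq2 and Helq, on the sides of Hpse, were at 0.01 and 0.03 (adjusted p = 0.91 and 0.78), and Smchd1, beside Emilin2, was at 0.01 (0.91). The low-count genes Otos and Ankmy1, on the sides of Gpc1, were at -0.88 (SE 0.360) and -0.61 (SE 0.394), with adjusted p = 0.078 and 0.26 (edgeR). Otos passed the call only without Veh replicate 1 (-1.12). Pkd2, beside Spp1, was at -0.52 (adjusted p = 0.19, edgeR).

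**Figure D4:**
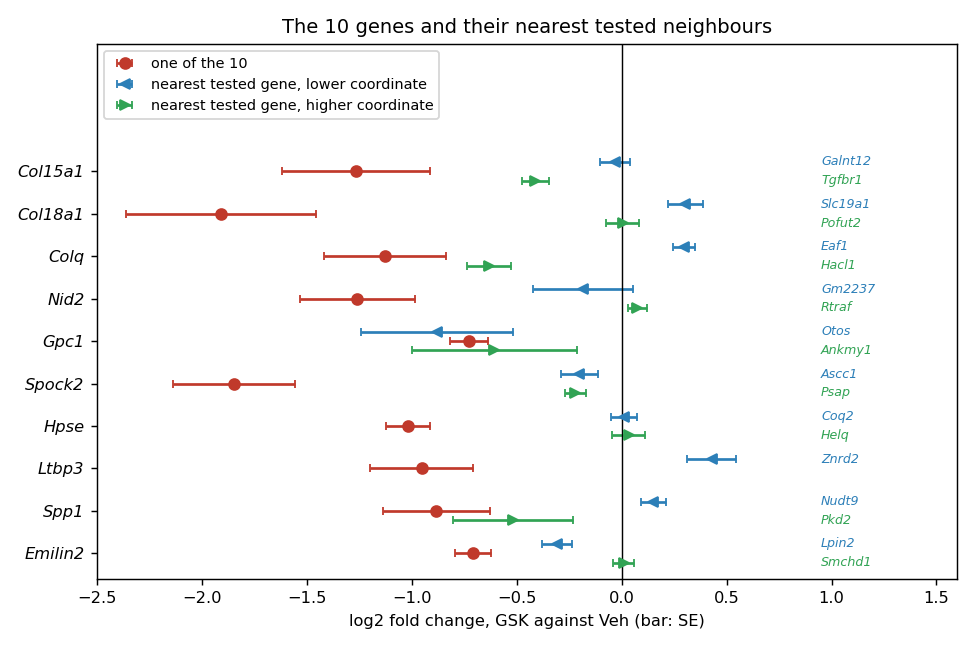
Log2 fold change (GSK against Veh, bar is the SE) of each of the 10 genes (red circles) and of the nearest tested gene toward lower (blue) and higher (green) coordinates, whose names stand at the right. Of the 20 neighbours, 1 is not drawn. The red points lie between -1.91 and -0.71, and the neighbours lie between -0.88 (Otos) and 0.43 (Znrd2), with Hacl1 the only gene called lower among them.

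Most of the closest relatives of the 10 genes had too few reads to test. Of 22 listed, 15 had a row and 4 had enough reads to be tested (Nid1, Gpc2, Ltbp4 and Emilin1). None of the 4 was called by edgeR, none had an unadjusted p under 0.05, and DESeq2 called none. Gpc2 was at 3.33 CPM in Veh and 2.81 in GSK (log2 fold change -0.25, adjusted p = 0.40, edgeR). Gpc3, Gpc4, Gpc6, Hpse2, Ltbp1, Ltbp2, Spock3, Mmrn1, Mmrn2, Ache and Prima1 were too low to test.

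A wider list of matrix genes showed what the other members of each class did. Besides the 10, it held 307 genes, of which 263 had a row and 94 could be tested. By edgeR's quasi-likelihood test, 7 of the 94 (7.45%) were called lower and 6 (6.38%) higher, against 4.09% and 2.22% of all tested genes, with a median log2 fold change of -0.07 beside -0.004 for all genes. With the adjusted p alone, 17 were lower and 13 higher, against 15.5% and 16.6% of all tested genes. With 1 library left out, the calls numbered 4 (without Veh replicate 1) to 10 lower and 2 (without Veh replicate 1, Veh replicate 3 or GSK replicate 1) to 5 higher. Among the other collagens, 10 of 42 could be tested and 0 were called in either direction (at an unadjusted p under 0.05, 2 were lower and 0 higher, and DESeq2 called none). Col11a2, a fibrillar collagen chain, was at 11.6 and 8.36 CPM (log2 fold change -0.47, adjusted p = 0.029) and fell short of the 1.5-fold limit. Col1a1, of type I collagen, was at 1.96 and 1.15 CPM (-0.76, 0.051) and lay just outside the limit on adjusted p, which it passed only when genes were filtered at 1 CPM.

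Enzymes that modify collagen chains were among the other matrix genes called lower. Of 13 tested, 3 (23.1%) were lower and 1 (7.69%) higher by edgeR, against 4.09% and 2.22% of all tested genes. At an unadjusted p under 0.05, 6 were lower and 3 higher, and DESeq2 called 3 lower and 0 higher. The median log2 fold change of the 13 was -0.007, beside -0.004 for all tested genes. Plod2, a lysyl hydroxylase, was at 101 ± 8.01 CPM in Veh and 59.9 ± 3.98 in GSK (log2 fold change -0.76, SE 0.0663, adjusted p = 9.4e-06, edgeR). P4ha2, a subunit of prolyl 4-hydroxylase, fell from 23.9 ± 3.02 to 7.25 ± 1.86 CPM (-1.72, SE 0.168, adjusted p = 7.4e-05, edgeR), and Plod1 was at 8.58 and 5.69 CPM (-0.59, adjusted p = 0.0053), a call lost without Veh replicate 3 (-0.55) and without GSK replicate 3 (-0.53). P4ha1 had a smaller difference, at -0.40 (adjusted p = 1.6e-04). The higher gene, Fkbp10, had 0.573 CPM in Veh and 1.35 in GSK and lost its call in DESeq2 and without 4 of the 6 samples.

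Over all tested genes, the background for the classes that follow, 4.09% were called lower and 2.22% higher. Among the other proteoglycans, 1 of 9 tested (11.1%) was lower and 0 were higher by edgeR (unadjusted p under 0.05: 2 lower and 1 higher, and DESeq2 called 1 each way). Sdc4, the cell surface proteoglycan syndecan-4, was at 3.37 and 1.97 CPM (log2 fold change -0.78, SE 0.212, adjusted p = 0.014, edgeR), with an adjusted p of 0.053 without Veh replicate 1. Srgn, the granule proteoglycan serglycin, was at 234 and 197 CPM, far above Gpc1 in reads (-0.25, adjusted p = 0.0026). Among glycoproteins, 2 of 31 (6.45%) were lower and 1 (3.23%) higher: Igfbp4 (-0.76, adjusted p = 0.029), lost in 5 of 11 alternatives, and the low-count genes Igfbp7 (lower, lost in 3 of 10) and Papln (higher, lost in 5 of 10). Among matrix proteases, other enzymes and their inhibitors, 1 of 31 (3.23%) was lower and 4 (12.9%) were higher. The lower gene was the protease Adamts6 (-0.84, adjusted p = 0.0031), and the higher ones were the protease inhibitor Serpine2 (0.73, SE 0.0913, adjusted p = 1.4e-04), the heparan sulfate sulfatase Sulf2 (0.69, adjusted p = 0.040, lost in 7 of 11 alternatives) and the low-count genes Mmp9 (lost in 3 of 10) and Tgm1 (lost in 4 of 11).

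**Figure D5:**
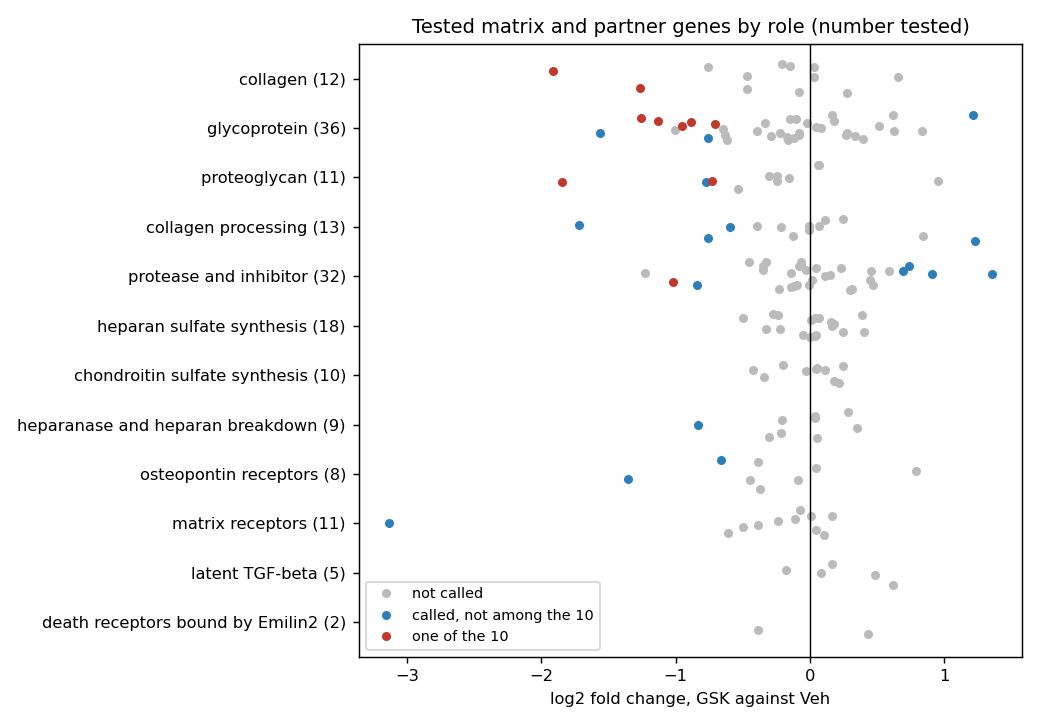
Log2 fold change (GSK against Veh) of every tested gene of the matrix list (upper 5 classes) and of the partner list (lower 7 classes), with the number tested in brackets and a vertical scatter added for legibility only. The 10 genes (red) lie between -1.91 and -0.71, the other called genes (blue) lie on both sides of 0, and the partner genes called are all lower, with Itga7 at -3.13.

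Partners of the 10 gene products were listed by function: 94 genes, of which 63 could be tested. By edgeR 4 (6.35%) were lower and 0 higher, against 4.09% and 2.22% of all tested genes, and the median log2 fold change was 0.01. At an unadjusted p under 0.05, 13 were lower and 12 higher, against 2479 and 2547 of all 11698 tested genes. DESeq2 called 4 lower and 0 higher. The heparan sulfate on Gpc1 and Spock2, which Hpse cuts, is built by a set of enzymes of which 18 were tested and 0 called (unadjusted p: 3 lower and 4 higher, and DESeq2 called none). The 10 tested enzymes of chondroitin sulfate synthesis had 0 calls as well (unadjusted p: 1 lower and 3 higher, and DESeq2 called none). Of 9 genes for the lysosomal breakdown of heparan sulfate and for the activation of heparanase, 1 was lower. It was Ctsl, cathepsin L, the protease that cuts heparanase into its active form, at 4.90 and 2.74 CPM (-0.83, SE 0.206, adjusted p = 0.0082, edgeR), while Gusb had a small positive value (0.28, adjusted p = 0.0024).

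Receptors for osteopontin had 2 lower (25.0%) and 0 higher calls among 8 tested, against 4.09% and 2.22% of all tested genes. Their median log2 fold change was -0.38, beside -0.004 for all tested genes (unadjusted p under 0.05: 3 lower and 0 higher, and DESeq2 called 2 lower and 0 higher). Itga4, the integrin α4 chain, fell from 48.9 to 19.1 CPM (-1.35, SE 0.210, adjusted p = 0.0057, edgeR). Itgb3, the integrin β3 chain, fell from 131 to 82.6 CPM (-0.66, adjusted p = 0.0072), a call lost without GSK replicate 3 (-0.54). Cd44 was at 165 and 170 CPM (0.05, adjusted p = 0.43) and Itgav at 64.4 and 60.6 (-0.09, 0.32). Among 11 receptors for collagen, laminin and other matrix proteins, Itga7, a laminin-binding integrin chain, fell from 41.2 to 4.68 CPM (-3.13, SE 0.284, adjusted p = 8.9e-04, edgeR) and no other was called.

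The latent TGF-β genes around Ltbp3 had 0 calls among 5 tested (unadjusted p under 0.05: 0 lower and 2 higher, and DESeq2 called none). Nrros, which tethers latent TGF-β on leukocytes, was at 123 and 173 CPM (0.49, adjusted p = 1.2e-05) and Tgfb1 at 226 and 253 CPM (0.16, adjusted p = 0.0068), both below the 1.5-fold limit and both opposite in sign to Ltbp3. The death receptor genes listed beside Emilin2, Tnfrsf10b and Fas, were at 0.43 (adjusted p = 0.0043, edgeR) and -0.39 (0.012), and neither reached the 1.5-fold limit. That Emilin2 binds Fas is not claimed.

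Markers of cells that make matrix or could be left over from the spleen were summed in each sample. The fibroblast and stroma markers (7 of 7 with a row, 4 tested, 0 called) summed to 4.94 to 5.69 CPM in Veh and 3.14 to 4.59 in GSK, so that this sum moved with the groups in the same direction as the 10 genes, and its part in their lower levels was not tested. Of these markers, Dcn, Lum and Pdgfra had at most 4, 6 and 4 reads in any library. Pdgfrb had 13, 22 and 11 reads in Veh and 7, 8 and 10 in GSK (log2 fold change -0.92, adjusted p = 0.12, edgeR). Col1a1 (-0.76) was also lower in every GSK sample, while Col1a2 (-0.21) and Col3a1 (-0.47) overlapped between the groups. Endothelial markers (4 of 5 with a row) summed to 70.9 to 79.4 and 57.3 to 72.4 CPM, nearly all of it Pecam1, which T cells also express. Cdh5 had 1, 3 and 3 reads in Veh and 0 in each GSK library, while Kdr had 7, 8 and 4 in Veh and 13, 2 and 11 in GSK. Macrophage markers (7 of 7 with a row) summed to 7.99 to 13.3 and 9.12 to 11.5 CPM. Most of this was Cd68, at 8.87 CPM in Veh and 9.34 in GSK. Lyz2 had 27, 14 and 2 reads in Veh and 2, 13 and 3 in GSK (log2 fold change -1.30, adjusted p = 0.29, edgeR). C1qa had 6, 3 and 2 reads in Veh and 0, 2 and 1 in GSK, while Csf1r had 5 reads or fewer and Adgre1 1 or 0. Platelet markers (3 of 4 with a row) summed to 1.47 to 2.31 and 0.683 to 1.20 CPM, lower in GSK through Itga2b (-1.08, adjusted p = 0.020, edgeR, lost without Veh replicate 2, Veh replicate 3 or GSK replicate 1), while Pf4 and Gp9 had 1 read in 1 library each.

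Markers of B cells (4 of 4 with a row) summed to 0.263 to 0.381 CPM in Veh and 0.735 to 1.42 in GSK, those of NK cells (2 of 2) to 1.52 to 2.36 and 2.33 to 3.73, and those of CD4 and regulatory T cells (2 of 2) to 3.47 to 5.00 and 3.59 to 5.46. The single neutrophil marker with a row was at 0.263 CPM or less. CD8 T cell markers (6 of 6) summed to 2255 to 2371 CPM in Veh and 2104 to 2249 in GSK, lower in every GSK sample, as was Cd3g (-0.38, adjusted p = 6.0e-05, edgeR), under the 1.5-fold limit.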

How the data were processed

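The deposited file is 1 table of raw read counts per gene, which the authors made from bulk RNA-seq. The submitters' processing notes name Trimmomatic, HISAT2 2.1.0, HTSeq 0.11.2, Cufflinks 2.2.1, DESeq2 1.22.2 and build GRCm38. The annotation release and strand setting are not given in the sources used here. The table's other columns hold gene annotation.

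Counts were fitted with edgeR 4.0.16 (quasi-likelihood test, TMM factors, filterByExpr with a minimum of 10 counts) in R 4.3.3, with all 6 libraries and group as the only term, and p-values were adjusted over 11698 genes by Benjamini-Hochberg. A gene was called when it passed 0.05 after adjustment and differed by over 1.5-fold. Fold changes are on edgeR's scale with its prior count, which shrinks low genes. The script was tested on simulated data in which only well-counted genes were changed, so that test does not cover the low-count genes described here. Replicates within a group differed by more than sampling noise (chi-square per degree of freedom 4.08 to 9.42), and p-values measure the spread between these samples. With 3 against 3, an exact permutation test cannot go below p = 0.1.

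The 10 genes and the gene lists were chosen with earlier results of these data known. Genes outside the 10 were named when they were called and had a mean count of at least 50, at most 12 for each direction, or as listed relatives, neighbours, markers and partners. The low-count genes named (Igfbp7, Papln, Fkbp10, Mmp9, Tgm1) and the uncalled list members given as values were chosen after their values were seen. Positions and promoters come from RefSeq for GRCm38.p6. Exon lengths, as the union of the exons of each gene, and gene strands come from GENCODE for GRCm38. Alternatives were DESeq2 1.42.0, its size factors, no filter, a filter at 1 CPM, a replicate block and leaving out each library. Intervals of single counts cover counting error only. Some listed genes entered the counts but are not reported here by name.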

Additional observations from a re-analysis of the deposited data

How the results depend on the processing

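The median log2 fold change of the 10 genes stayed between -1.12 and -1.02 over the 11 alternatives. The lowest size came from a filter at 1 CPM, under which Col18a1 was not tested. All 10 were chosen on this contrast, so their sign is no sign of stability. The labels do not say whether samples with the same replicate number share a mouse. Their deviations from the group means had correlations of -0.052, -0.081 and 0.16, which cannot settle it with so few samples in each group. With the replicate block, 447 genes were called lower and 253 higher in place of 479 and 260, the other matrix genes gave 7 and 6, the partner genes 4 and 0, the neighbours 1 and 0, and the median of the 10 was -1.07. Leaving out 1 library each time, the other matrix genes called lower numbered 4 (without Veh replicate 1) to 10 (without GSK replicate 3) and those called higher 2 (without Veh replicate 1, Veh replicate 3 or GSK replicate 1) to 5, with 3 without GSK replicate 2 or GSK replicate 3. The neighbours called lower numbered 0 (without GSK replicate 3) to 2 (without Veh replicate 1). The cause was not tested. A list of matrix genes by Gene Ontology term, chosen after seeing the data, gave 18 lower and 10 higher calls because it holds more genes. Of the single genes' values, 686 kept direction and side of the threshold, 40 lost the call, 3 gained it and 21 changed sign. Those 21 were of 10 genes called in no setting, all when 1 library was left out, whose log2 fold changes then ranged as follows: Col1a2 (-0.59 to 0.10), Cd68 (-0.038 to 0.25), Cd4 (-1.005 to 0.12), Foxp3 (-0.21 to 0.36), Galnt12 (-0.077 to 0.028), Pofut2 (-0.046 to 0.038), Gm2237 (-0.34 to 0.0042), Coq2 (-0.029 to 0.0501), Helq (-0.027 to 0.0699) and Smchd1 (-0.034 to 0.051). For the 10 genes chosen by this contrast the counts cover fold changes only. Their calls were lost in 6 of 11 alternatives for Spp1 and in 1 for Col15a1, and Col18a1 had no adjusted p in 2. At 3 to 6 reads in GSK, Col18a1 is limited by depth.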

Other observations

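Gene Ontology terms for the matrix picked 529 genes besides the 10, of which 245 could be tested. By edgeR's quasi-likelihood test 18 (7.35%) were called lower and 10 (4.08%) higher, against 4.09% and 2.22% of all tested genes. With only the adjusted p, 53 were lower and 34 higher, against 15.5% and 16.6% of all tested genes. The median log2 fold change was -0.07. This list was chosen after seeing the data and shares genes with the lists above. Its lower genes included Vegfa and Ero1a beside Plod1, Adamts6, Itgb3, Ctsl and Igfbp7, and its higher genes included Tnf, Ctsz and Ptk2 beside Serpine2, Mmp9, Fkbp10, Papln and Sulf2.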
